A study of Mus musculus with 8 samples.

Results

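The unfolded protein response (UPR) and the folding machinery of the endoplasmic reticulum (ER) are described here through 36 named genes, chosen by gene symbol and all present among the 22911 genes of the deposited table. The RNA came from the buccal epithelium of C57BL/6 mice, an inbred strain, all of them adult. The epithelium was lifted off with the protease dispase II and its cells were sorted by flow cytometry. Germ-free animals, labelled GF, which carry no microorganisms, were set against SPF (specific pathogen-free) animals, which carry a resident microbiota. The labels name wild-type mice and no treatment in either group. There were 4 animals in each group with 1 library apiece, and SD stands for the standard deviation over those 4. The comparison asks how the oral epithelium differs between mice without and with resident microbes.

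Secreted and membrane proteins fold inside the ER, and unfolded protein there is sensed by 3 membrane proteins. IRE1 (gene Ern1) removes an intron from the Xbp1 message, and the protein made from the spliced form is a transcription factor for chaperone, translocation and degradation genes. ATF6 is cut in the Golgi to release a transcription factor for chaperones. PERK (Eif2ak3) phosphorylates the initiation factor eIF2α, which lowers translation while favouring that of ATF4, the inducer of Ddit3 (CHOP) and of amino acid genes. Many chaperone genes answer to both XBP1 and ATF6, so the arms used below are a working grouping. Gene-level counts do not separate spliced from unspliced Xbp1, and they do not read the cleavage of ATF6 or the phosphorylation of eIF2α.

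Counts per library summed to between 10430507 and 15524731 in germ-free and between 10260264 and 14730960 in SPF mice. Values are CPM, a gene's counts scaled to library size and corrected by TMM factors. The 14 oral keratinocyte markers, all tested and none called by edgeR at the threshold given below, summed to 53522 to 61889 CPM in germ-free and 55553 to 66839 CPM in SPF libraries. Markers of other cell types were at low levels, some of them high in 1 library and some different between groups. The 10 fibroblast markers summed to 622 CPM in germ-free 3, against 58.3 to 87.4 CPM in the other germ-free libraries and 32.8 to 64.7 CPM in SPF libraries. Of 12 salivary and mucous gland markers 11 were in the table, with a sum of 259 CPM in germ-free 4, 2.11 to 5.88 CPM in the other germ-free libraries and 0.916 to 28.9 CPM in SPF libraries. Germ-free 4 held 661 counts of the salivary gene Dcpp1, and the 4 SPF libraries held 0. Of 12 plasma cell and B cell markers 7 were in the table. Their sum of 549 to 613 CPM in germ-free and 728 to 816 CPM in SPF libraries was mostly Sdc1, a syndecan that keratinocytes also make, which was called lower in germ-free mice (edgeR adjusted p = 0.0155). The 10 endothelial markers summed to 15.2 to 126 CPM in germ-free and 5.97 to 14.7 CPM in SPF libraries, with no overlap. One of the 9 tested, Emcn, was called higher in germ-free mice (edgeR adjusted p = 0.00469), at 15, 53, 38 and 8 counts in germ-free and 0, 0, 0 and 1 counts in SPF libraries. DESeq2 also called the endothelial Kdr, Tek, Vwf, Lyve1 and Flt4 higher (adjusted p = 0.000239 to 0.0229), and limma voom Flt4 (0.0465). Further markers called higher by DESeq2 were the fibroblast Dpt and Fbn1, Cd68 of the leukocyte list and Irf4 of the plasma cell and B cell list. Leukocyte markers summed to 7.72 to 25.5 CPM in germ-free and 5.09 to 10.8 CPM in SPF libraries. The part of these cells in the results below was not tested. In such bulk samples fewer cells of a type and less RNA per cell cannot be told apart. No source used here gives the hour of collection, and hour and group cannot be told apart.

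The DNA element that ties ER chaperones together is the ER stress response element (ERSE), CCAAT and CCACG held 9 bases apart, which NF-Y and ATF6 or XBP1 bind. The 250 bases before the start were read on the gene's strand from RefSeq promoters (GRCm38.p6), which covered 31 of the 36 genes with 32 promoters. For 27 of the 32 the bases after the start occurred in a transcript of the gene, and the starts of the rest are less certain. Of these 32 promoters 8 held these letters on either strand, against 0.113% of 32851 promoters. The element is known from ER chaperone genes such as these, so the higher share is a description and no test. The sites are printed 5′ to 3′ on the gene's strand with 15 bases on each side, and capitals mark the fixed letters of the element, which reads CGTGG then ATTGG where it lies on the other strand. They show the element in the genes that held it, Syvn1 among them being a ligase. The windows of Pdia3, Pdia4, P4hb, Dnajb11, Dnajb9 and Sdf2l1 held no exact match, and Hyou1 and Manf were not covered. Matches that differed by a base were not counted. The Pdia4 window held AGTGG, 9 other bases and ATTGG, which differs only in the first letter from the element on the other strand.
Hspa5 chr2:34772010-34772058 plus strand: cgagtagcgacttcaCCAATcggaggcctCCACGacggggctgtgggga
Hsp90b1, distal, chr10:86705623-86705671 minus strand: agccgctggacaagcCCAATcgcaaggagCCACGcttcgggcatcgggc
Hsp90b1, proximal, chr10:86705518-86705566 minus strand: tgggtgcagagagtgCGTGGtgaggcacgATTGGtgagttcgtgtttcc
Calr chr8:84847060-84847108 minus strand: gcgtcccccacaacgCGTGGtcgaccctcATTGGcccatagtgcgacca
Canx chr11:50325785-50325833 minus strand: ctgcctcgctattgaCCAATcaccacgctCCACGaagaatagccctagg
Pdia6 chr12:17266476-17266524 plus strand: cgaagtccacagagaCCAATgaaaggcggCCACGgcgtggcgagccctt
Creld2 chr15:88819505-88819553 plus strand: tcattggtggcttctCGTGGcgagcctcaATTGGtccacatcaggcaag
Dnajc3 chr14:118937812-118937860 plus strand: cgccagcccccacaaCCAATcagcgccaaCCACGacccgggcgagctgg
Syvn1 chr19:6046517-6046565 plus strand: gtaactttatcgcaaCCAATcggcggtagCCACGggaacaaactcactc

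Among the members with a promoter read, Hsp90b1 was the single one with 2 such sites. Its whole window (chr10:86705445-86705694, minus strand) is shown with both elements in capitals, the first beginning 212 and the second 107 bases before the start.
Hsp90b1 promoter: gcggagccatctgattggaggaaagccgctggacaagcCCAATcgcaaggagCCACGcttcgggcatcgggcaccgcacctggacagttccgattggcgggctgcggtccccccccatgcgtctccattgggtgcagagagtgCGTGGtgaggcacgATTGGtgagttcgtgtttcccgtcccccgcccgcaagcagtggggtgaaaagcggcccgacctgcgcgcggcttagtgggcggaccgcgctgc

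Herpud1 held ERSE-II (ATTGG, 1 base of any kind, CCACG, in 0.0304% of all promoters) and, upstream of it, the ATF4 composite element CARE (TGATGCAA, in 0.791%), a motif it shared with Chac1. The Herpud1 window also ended in CCAAT, the spacing of the ERSE and CCAC. The last letter of this possible ERSE lay beyond the window's edge, so Herpud1 is not known to lack the ERSE. The UPRE letters TGACGTGG, in 0.563% of all promoters, were in no member window. All motifs were searched as exact letters on both strands, and ERSE-II and CARE do not overlap in Herpud1. The Asns window held TGATGAAA, which differs from the CARE letters searched in 1 base and was not counted, so Asns is not known to lack CARE. The sites below are shown because their elements differ from the ERSE printed above.
Herpud1, ERSE-II, chr8:94386362-94386402 plus strand: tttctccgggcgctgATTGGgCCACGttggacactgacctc
Herpud1, CARE on the other strand, chr8:94386302-94386339 plus strand: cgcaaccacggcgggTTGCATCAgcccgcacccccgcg
Chac1, CARE on the other strand, chr2:119351034-119351071 plus strand: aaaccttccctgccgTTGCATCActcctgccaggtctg

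In germ-free epithelium Xbp1 was the single member that passed the main test, by edgeR, and it fell. It was also called by DESeq2 (adjusted p = 0.00374) but not by limma voom (0.0581). Of the 36 genes 35 passed the filter on low counts, and Chac1 did not. By the quasi-likelihood test of edgeR, Benjamini-Hochberg adjusted over all 15098 genes tested, 0 members were called higher and 1 lower at an adjusted p under 0.05. Over all genes 1.85% were called higher and 2.33% lower, so the share of members called, 2.86%, lay near the background of 4.18% for both directions. Below the threshold the members leaned one way: 23 of 35 had a log2 fold change below 0, with a median of −0.24, against a median of 0.0209 over all genes. At an unadjusted p under 0.05 stood 18 of 35 members, which is 51.4%, against 19.5% of all genes. Of these, 15 were lower in germ-free mice, where 9.53% of all genes were, and 3 were higher, namely Dnajb9, Herpud1 and Atf6, where 9.95% of all genes were. Without SPF 1 Dnajb9 alone of these 3 kept such a p (0.0156), with 0.0931 for Atf6 and 0.114 for Herpud1 by edgeR. The groups did not overlap in CPM for 7 of the 35, 6 lower and 1 higher, where 13.1% of all tested genes did not overlap, 6.84% lower and 6.24% higher. These genes share libraries and vary together, so the counts describe them and are no test of the list.

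Tools other than edgeR called more members. DESeq2 called 7 lower (Xbp1, Hsp90b1, Pdia3, Pdia4, P4hb, Sec61b and Creb3l2) and Dnajb9 higher, against 4.30% of all its genes lower, 4.06% higher and 8.36% in all. Limma voom called 4 lower (Hsp90b1, Pdia4, P4hb and Canx) and Dnajb9 higher, against 3.61% lower, 2.85% higher and 6.46% in all. In the authors' deposited table, whose fold changes run SPF over germ-free, 5 members were lower in germ-free mice at an adjusted p under 0.05 and 1, Dnajb9, was higher, against 2.63% of all its genes lower and 2.59% higher. The log2 fold changes of that table were 0.51 for Xbp1, 0.56 for Hsp90b1, 0.33 for P4hb, 0.57 for Sec61b and 0.34 for Creb3l2, each positive where SPF was higher.

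**Figure D1:**
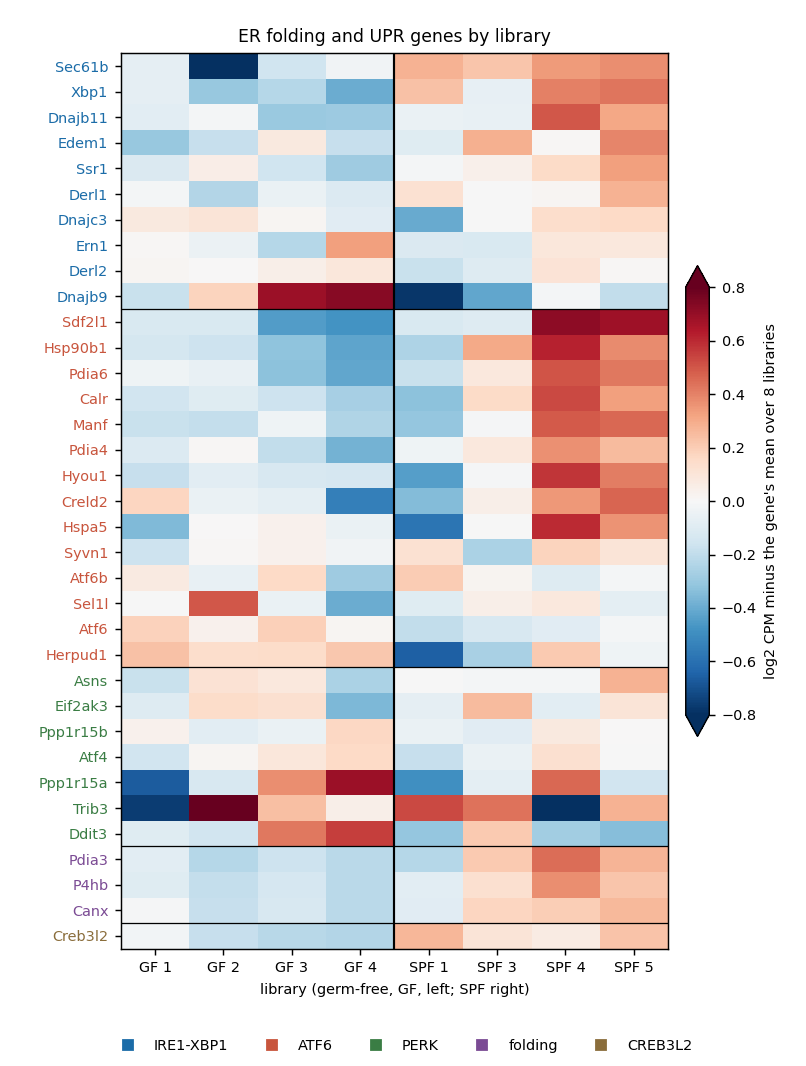
Level of the 35 tested genes in each library, as log2 CPM minus the gene's mean over the 8 libraries (colour scale capped at 0.8 on either side), with germ-free (GF) libraries left of the line and SPF libraries right of it and gene names coloured by arm. The chaperone and isomerase rows are darkest red in SPF 4 and SPF 5, and SPF 1 is blue in most of them, like the germ-free libraries.

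Levels were compared between genes as CPM per kilobase of merged exons (GENCODE M21). Chaperones and disulfide isomerases led in both groups, and the order given is that of SPF means. Calr, a lectin chaperone that holds calcium, stood at 206 in germ-free and 267 in SPF mice, and Hsp90b1 (GRP94, the HSP90 of the ER) at 131 and 193 CPM per kilobase. They were followed by the disulfide isomerases Pdia3 and P4hb, the membrane lectin chaperone Canx, Pdia4, and Hspa5 (BiP, the HSP70 of the ER) at 97.4 in germ-free and 115 in SPF mice. Atf4 came next at 76.7 in germ-free and 73.9 in SPF mice. In germ-free means Pdia3, at 135, stood above Hsp90b1, and Hspa5 above Pdia4, at 96.5 CPM per kilobase. Neighbours in this order mostly overlapped across SPF libraries. The exceptions were Atf4 above Pdia6, Sel1l above Edem1, and the end of the order, where Ern1, Atf6, Eif2ak3, Derl2 and Trib3 stood apart in turn. The 3 sensors were thus near the bottom, with Ern1 at 7.41 in germ-free and 7.20 in SPF mice, Atf6 at 7.16 and 6.16, and Eif2ak3 at 4.33 and 4.61 CPM per kilobase. Trib3 and Chac1, both ATF4 and CHOP targets, were lowest, at 0.931 and 0.0734 in germ-free and 0.818 and 0.569 in SPF mice.

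**Figure D2:**
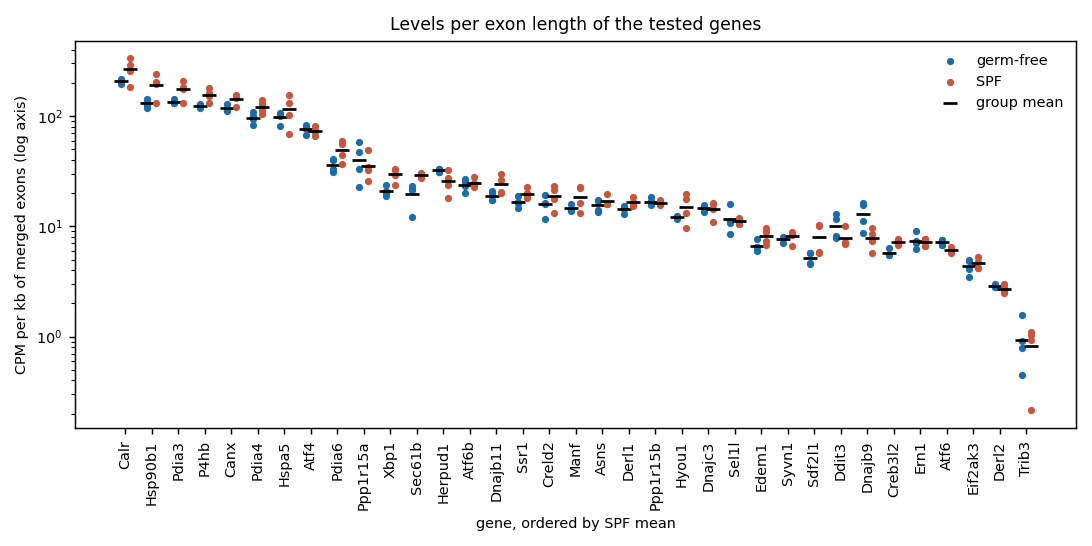
CPM per kilobase of merged exons on a log axis for the 35 tested genes, ordered by SPF mean, with 1 point per library (germ-free left of SPF within each gene) and a bar at each group mean. Chaperones and isomerases fill the left, the sensors Ern1, Atf6 and Eif2ak3 lie near the right end.

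Xbp1, the transcription factor of the IRE1 arm (ENSMUSG00000020484, GRCm38 chromosome 11, 5520659 to 5525893, plus strand), was at 76.6, 65.1, 68.5 and 61.1 CPM in germ-free 1 to 4 and at 94.4, 76.9, 106 and 108 CPM in SPF 1, 3, 4 and 5. The groups did not overlap, although SPF 3 lay only just above germ-free 1. Means were 67.8 ± 6.59 CPM in germ-free and 96.5 ± 14.4 CPM in SPF mice (SD, n = 4 each), and the fit gave −0.51 ± 0.12 on the log2 scale (± 1 standard error here and below; edgeR adjusted p = 0.0261). The fitted level was 1.42-fold higher in SPF. The call ended without germ-free 2 (adjusted p = 0.0566), germ-free 3 (0.0573), germ-free 4 (0.0876), SPF 4 (0.086) or SPF 5 (0.0819), while the fold change stayed between −0.60 and −0.45. Salivary markers were highest in germ-free 4 and fibroblast markers in germ-free 3, and their part in the result was not tested. Ern1, the kinase and nuclease that splices Xbp1, was at 59.6, 57.3, 50.7 and 74.6 CPM in germ-free and 54.6, 54.4, 63.2 and 63.0 CPM in SPF libraries. The groups overlapped throughout, and the 95% interval of its log2 fold change ran from −0.22 to 0.30.

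Genes that XBP1 is known to drive had fold changes on both sides of 0 in the IRE1 arm. Sec61b, the β subunit of the translocon, was at 28.5, 15.6, 26.9 and 29.4 CPM in germ-free and 36.4, 35, 38.1 and 38.9 CPM in SPF libraries. All SPF libraries were above all germ-free ones, with germ-free 2 far below the rest, but the log2 fold change of −0.57 ± 0.17 did not pass (edgeR adjusted p = 0.0818). Dnajb9 (ERdj4, a co-chaperone that returns BiP to IRE1; ENSMUSG00000014905, chromosome 12, 44205559 to 44210326, minus strand) went the other way. It was at 22.1, 28.2, 40.1 and 41.3 CPM in germ-free and 14.6, 18.7, 24.7 and 21.8 CPM in SPF libraries. Germ-free 1 was within the SPF range and the other 3 were above it. The log2 fold change of 0.72 ± 0.21 did not pass by edgeR (adjusted p = 0.084), and did by DESeq2 (0.0253) and limma voom (0.0426).

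The other members of the IRE1 arm moved less and were not called. Dnajb11 (ERdj3, a BiP co-chaperone) had a log2 fold change of −0.36, Edem1, a lectin that sends misfolded glycoproteins to degradation, −0.30, and Ssr1, a subunit of the translocon-associated complex, −0.26, each at an unadjusted p under 0.05. Derl1, a degradation channel protein, stood at −0.21 and its groups did not overlap. Its relative Derl2 was at 0.08 and Dnajc3 (P58IPK, an inhibitor of PERK) at 0.04, both with groups that overlapped. By edgeR 1 of the 10 genes of this arm fell and 9 were not called, where 2.33% of all genes were called lower. An unadjusted p under 0.05 by edgeR was reached by 6 of the 10, Dnajb9 among them being higher, against 19.5% of all genes. DESeq2 called 2 lower and 1 higher, against 4.30% and 4.06% of all its genes. Limma voom called 0 lower and 1 higher, against 3.61% and 2.85%.

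**Figure D3:**
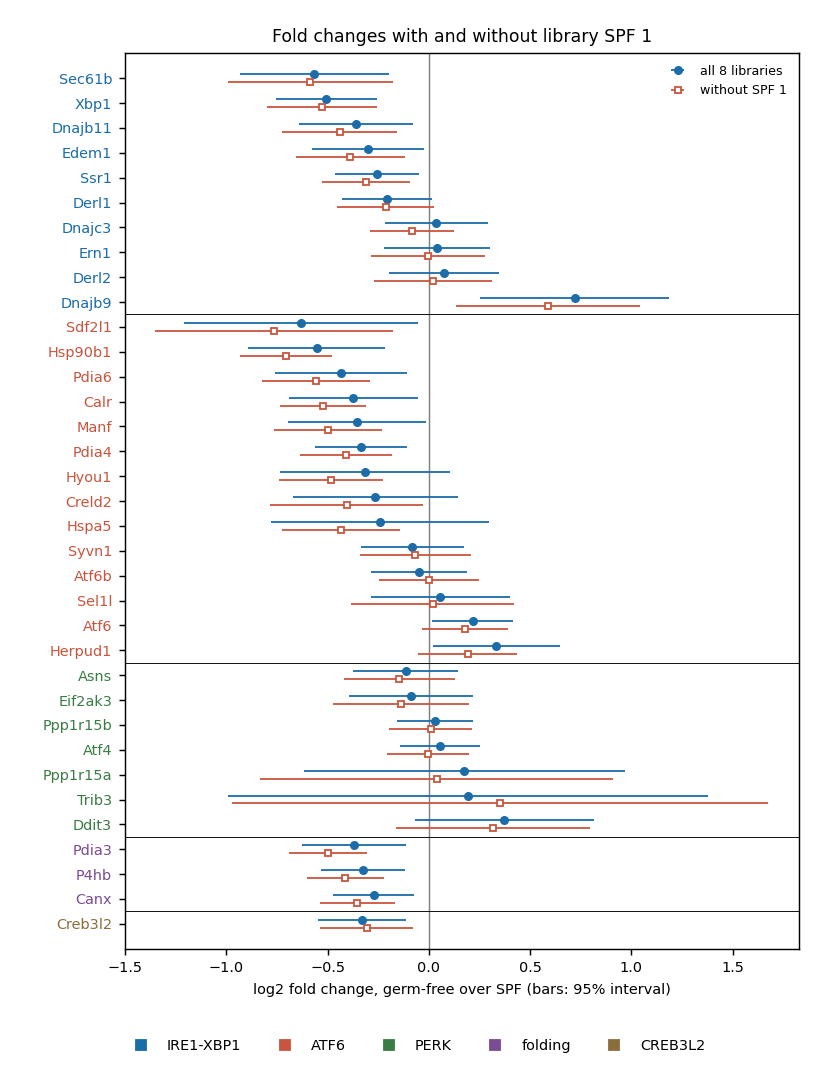
Log2 fold change, germ-free over SPF, with its 95% interval for the 35 tested genes by arm, from all 8 libraries (filled circles) and without SPF 1 (open squares). Intervals lie below 0 for most chaperones and isomerases and shift further left without SPF 1, whereas those of the PERK arm span 0. Leaving SPF 1 out raises the SPF mean of the genes for which it was the lowest SPF library.

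In the ATF6 arm none of 14 genes was called by edgeR, and 8 had an unadjusted p under 0.05, 6 lower and 2 higher in germ-free mice, where 19.5% of all genes had such a p, 9.53% lower and 9.95% higher. DESeq2 and limma voom each called 2 of them, Hsp90b1 and Pdia4, lower, against 4.30% and 3.61% of all genes. Atf6 itself was at 69.7, 62.8, 69.9 and 61.9 CPM in germ-free and 53.4, 55.9, 57.5 and 60.6 CPM in SPF libraries. Every germ-free library was above every SPF library, by a small margin, and the log2 fold change was 0.22 ± 0.09 (edgeR adjusted p = 0.216). Its relative Atf6b had groups that overlapped and a log2 fold change of −0.05.

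Hsp90b1 and Hspa5 spread widely among SPF libraries. Hsp90b1 (ENSMUSG00000020048, chromosome 10, 86690209 to 86705509, minus strand) was at 575, 564, 506 and 472 CPM in germ-free and 533, 780, 972 and 822 CPM in SPF libraries. SPF 1 lay within the germ-free range and the other 3 were above all germ-free libraries. Means of 529 ± 48.5 CPM in germ-free and 777 ± 182 CPM in SPF mice gave a log2 fold change of −0.55 ± 0.15 (edgeR adjusted p = 0.0709). Hspa5 (ENSMUSG00000026864, chromosome 2, 34771970 to 34777547, plus strand), the sensor-binding chaperone whose level is the usual readout of the UPR, was at 342, 437, 448 and 421 CPM in germ-free libraries. In SPF libraries it was at 291, 437, 660 and 560 CPM. SPF 1 held the lowest and SPF 4 the highest value of all 8, and the germ-free libraries lay between them. The log2 fold change of −0.24 had a 95% interval of −0.78 to 0.30.

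The isomerases Pdia4 and Pdia6 had lower germ-free means and did not pass by edgeR. Pdia4 was at 240, 261, 226 and 199 CPM in germ-free and 252, 275, 333 and 308 CPM in SPF libraries, with germ-free 2 above SPF 1. Its log2 fold change was −0.34 ± 0.11 (edgeR adjusted p = 0.0923, DESeq2 0.0491, limma voom 0.0419). Pdia6 was at 152, 149, 124 and 117 CPM in germ-free and 137, 165, 220 and 208 CPM in SPF libraries. SPF 1 was again within the germ-free range, and the log2 fold change was −0.43 ± 0.15 (edgeR adjusted p = 0.134). Calr (−0.37), Manf, a secreted ER factor (−0.35), and Sdf2l1, a BiP cofactor (−0.63), also had an unadjusted p under 0.05. Hyou1 (GRP170, which exchanges the nucleotide of BiP) stood at −0.32 and Creld2, an isomerase-like ER protein, at −0.26, both above that p.

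None of the degradation genes of the arm was called by edgeR, DESeq2 or limma voom. Herpud1, a membrane scaffold of the degradation complex (ENSMUSG00000031770, chromosome 8, 94386438 to 94395377, plus strand), was at 77.7, 73.0, 73.3 and 76.7 CPM in germ-free and 42.1, 55.3, 76.4 and 64.5 CPM in SPF libraries. Germ-free libraries were tightly grouped near the highest SPF value, and the log2 fold change was 0.33 ± 0.15 (edgeR adjusted p = 0.229). Without SPF 1 it was 0.19 ± 0.11. Its promoter, printed above, held ERSE-II and CARE. Sel1l and Syvn1 (HRD1), the adaptor and the ligase of that complex, were at 0.06 and −0.08.

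Of the 8 carriers of the printed ERSE 7 had a log2 fold change below 0, with Dnajc3 the exception, and edgeR called 0, with a median of −0.269. DESeq2 called Hsp90b1 lower among them, and limma voom Hsp90b1 and Canx. Of the other 27 tested members 16 were below 0 and edgeR called 1, with a median of −0.115. These 27 include Atf6, Hyou1, Derl1, Manf and Ppp1r15b, for which no promoter was read, so they are not known to lack the element. They also include Herpud1 (0.33), whose possible ERSE was cut by the window's edge, and Pdia4 (−0.34), which held a variant. The sets thus separate exact matches from the rest, and not genes with the element from genes without it. Without SPF 1 the medians were −0.42 for the carriers, with 4 called lower, and −0.145 for the others, with 6 called lower. Hyou1 and Manf, for which no promoter was read, were among those 6. SPF 1 held low values for many members, so the medians without it are a description. The match of letters is a description of these windows.

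The isomerases P4hb and Pdia3, the lectin chaperone Canx and 1 relative of ATF6 had lower germ-free means, and edgeR called none of these 4 genes. DESeq2 called P4hb, Pdia3 and Creb3l2 lower, and limma voom P4hb and Canx, against 4.30% and 3.61% of all genes. P4hb (PDI) was at 372, 348, 362 and 342 CPM in germ-free and 375, 434, 515 and 463 CPM in SPF libraries. The groups did not overlap, with germ-free 1 and SPF 1 next to each other, and the log2 fold change was −0.33 ± 0.10 (edgeR adjusted p = 0.0755). Pdia3 (ERp57, the isomerase of the lectin chaperones) was at 451, 410, 427 and 412 CPM in germ-free and 409, 553, 653 and 578 CPM in SPF libraries, SPF 1 being the lowest of all 8. It had a log2 fold change of −0.37 ± 0.12 (edgeR adjusted p = 0.103). Canx was at 601, 532, 551 and 519 CPM in germ-free and 566, 680, 693 and 723 CPM in SPF libraries, with SPF 1 again inside the germ-free range. Its log2 fold change was −0.27 ± 0.09 (edgeR adjusted p = 0.121). Creb3l2 (BBF2H7, an ER-membrane transcription factor cut like ATF6) was at 46.0, 41.0, 40.1 and 39.7 CPM in germ-free and 56.3, 50.2, 48.9 and 54.6 CPM in SPF libraries. Here SPF 1 was the highest, the groups did not overlap, and the log2 fold change was −0.33 ± 0.10 (edgeR adjusted p = 0.0827).

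In the PERK arm no tested gene was called by edgeR, DESeq2 or limma voom, and 0 of 7 had an unadjusted p under 0.05 by edgeR, where 19.5% of all genes did. Eif2ak3 was at 24.9, 29.6, 29.2 and 20.8 CPM in germ-free and 25.4, 31.8, 25.2 and 28.7 CPM in SPF libraries. Atf4 was at 159, 179, 188 and 197 CPM in germ-free and 156, 171, 193 and 177 CPM in SPF libraries. Both genes overlapped between groups, and the 95% interval of the log2 fold change was −0.39 to 0.22 for Eif2ak3 and −0.14 to 0.25 for Atf4.

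Ddit3, the CHOP factor of prolonged stress, was at 14, 13.5, 20.1 and 22.0 CPM in germ-free and 12.1, 17.4, 12.4 and 11.9 CPM in SPF libraries. Germ-free 3 and 4 were above every SPF library, germ-free 1 and 2 were not, and the log2 fold change was 0.37 ± 0.21 (edgeR adjusted p = 0.34). Asns, the asparagine synthetase that ATF4 induces, was at 38.8, 47.7, 46.6 and 36.9 CPM in germ-free and 44, 43.5, 43.5 and 53.3 CPM in SPF libraries, with groups that overlapped. Ppp1r15a (GADD34), which reverses the phosphorylation of eIF2α, ranged from 67.1 to 171 CPM in germ-free and from 75.6 to 146 CPM in SPF libraries. That spread leaves an interval of −0.62 to 0.97 on the log2 scale. Ppp1r15b, its constitutive counterpart, ran from 86.9 to 103 CPM in germ-free and from 86.7 to 97.3 CPM in SPF libraries, with an interval of −0.15 to 0.22. Trib3, a pseudokinase that restrains ATF4, stood at 13 to 51 counts in germ-free and 6 to 32 counts in SPF libraries.

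Chac1, a glutathione-degrading enzyme induced by ATF4 and CHOP, was too sparse for the main test. It had 0, 2, 4 and 1 counts in germ-free and 4, 7, 20 and 18 counts in SPF libraries. The counts of germ-free 3 and SPF 1 were equal, and SPF 4 and SPF 5 held most of the rest. Summed over libraries, 7 counts in germ-free and 49 in SPF mice gave a rate ratio of 0.133, with an exact 95% interval of 0.0507 to 0.295 that covers counting error only and not the spread between animals. A floor of 3 counts is 0.192 to 0.305 CPM per library, and 3 germ-free libraries lay under it. Fitted without the filter, edgeR gave Chac1 an adjusted p of 0.131.

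**Figure D4:**
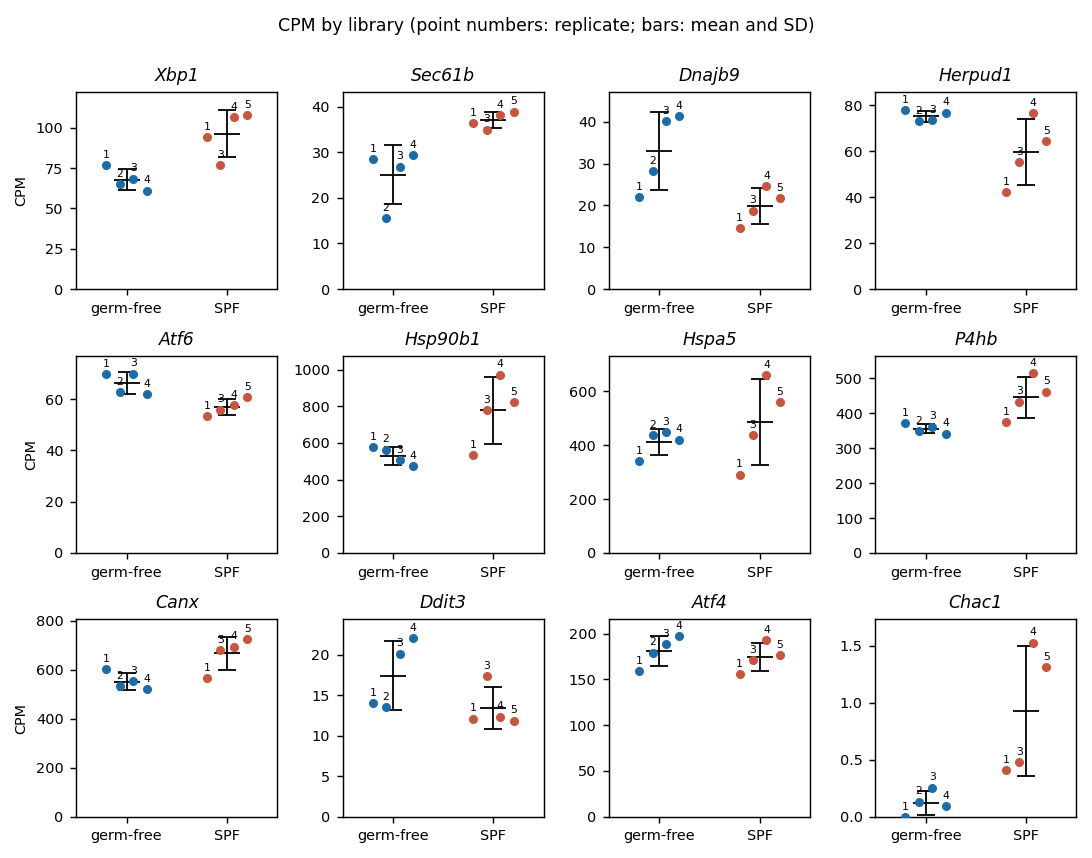
CPM in each library for 12 genes, germ-free left and SPF right in each panel, with points numbered by replicate and bars for mean and SD (n = 4 each). SPF 1 is the lowest SPF point for Hsp90b1, Hspa5, P4hb and Canx, and the groups do not overlap for Xbp1, Sec61b, Atf6, P4hb and Chac1.

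The count of members called by edgeR was highest with SPF 1 left out. SPF 1 held the lowest SPF value for 22 of the 35 tested members, 62.9%, and for 31.5% of all tested genes, and it was the shallowest SPF library. SPF 4 held the highest SPF value for 20 members, 57.1%, and for 25.5% of all tested genes. Germ-free 4 held the lowest germ-free value for 18 members, 51.4%, and for 24.4% of all tested genes. It was the shallowest germ-free library. Summed over the 36 genes, germ-free libraries held 4692 to 4983 CPM, and SPF 1, 3, 4 and 5 held 4631, 5710, 6926 and 6372 CPM. The ratio of highest to lowest library had a median over members of 1.25 in germ-free and 1.40 in SPF mice, against 1.5 and 1.44 over all tested genes. For Hspa5 it was 1.31 in germ-free and 2.27 in SPF mice, and for Hyou1 1.07 and 2.01.

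Without SPF 1, edgeR called 10 members lower and 0 higher, against 2.12% of 15650 genes lower and 1.46% higher. These were Xbp1, Hsp90b1, Calr, Canx, Pdia3, Pdia4, Pdia6, P4hb, Hyou1 and Manf. Because SPF 1 held the lowest SPF value for many members, leaving it out raises their SPF means. The added calls describe that dependence and are no independent test of the members. The log2 fold change without SPF 1 was −0.71 ± 0.11 for Hsp90b1 (edgeR adjusted p = 0.00281), −0.50 ± 0.09 for Pdia3 (0.00903) and −0.52 ± 0.10 for Calr (0.012). Hspa5 stood at −0.43 ± 0.13 and was not called (0.106). Leaving out any other single library gave 0 or 1 member lower. Dnajb9 was called higher without germ-free 1 (0.85, adjusted p = 0.0276) and with none of the other 7 libraries left out.

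Other genes of the pathway were followed through 5 lists. Of 48 tested integrated stress response genes 3 fell and 1 rose by edgeR, where 2.33% of all genes were called lower and 1.85% higher. At an unadjusted p under 0.05 stood 21 of the 48, against 19.5% of all genes. Gpt2, a mitochondrial alanine transaminase, fell to 25.1 ± 2.56 CPM in germ-free mice, against 41.6 ± 3.77 CPM in SPF mice (log2 fold change −0.73 ± 0.12, edgeR adjusted p = 0.00528). Shmt2 and Phgdh, enzymes of serine and one-carbon metabolism, fell by 0.45 and 0.44 on the log2 scale (edgeR adjusted p = 0.0137 and 0.0299). Ddit4 (REDD1, an inhibitor of mTORC1 that ATF4 and glucocorticoids induce) rose to 37.7 ± 5.63 CPM, against 26.6 ± 2.48 CPM in SPF mice (0.51 ± 0.13, edgeR adjusted p = 0.0442). Gpt2 and Shmt2 were called with each library left out in turn. The call of Phgdh ended without germ-free 2, 3 or 4 or SPF 1, 4 or 5 (adjusted p 0.0607 to 0.0939), and that of Ddit4 without germ-free 3 or 4 or SPF 3, 4 or 5 (0.104 to 0.144). The median of the list was −0.06.

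Of 31 tested genes of translocation and ER entry 1 fell, Sec61a1, the pore of the translocon, at 115 ± 9.76 CPM in germ-free and 151 ± 15 CPM in SPF mice (−0.38 ± 0.09, edgeR adjusted p = 0.0321). Over all genes edgeR called 2.33% lower. In that list 12 of 31 had an unadjusted p under 0.05, against 19.5% of all genes. A log2 fold change below 0 was seen for 25, with a list median of −0.17, against 0.0209 over all genes. The call ended with each of SPF 3, SPF 4, SPF 5, germ-free 2, germ-free 3 and germ-free 4 left out (adjusted p 0.0569 to 0.104).

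Among 31 other ER folding genes edgeR called 0, with 6 at an unadjusted p under 0.05, against 19.5% of all genes. DESeq2 and limma voom called 2 each, against 8.36% and 6.46% of all genes. The smallest p belonged to Fkbp2, a prolyl isomerase (−0.48, edgeR adjusted p = 0.0506), and Erp29 (−0.26, adjusted p = 0.0779). Of 24 further degradation genes edgeR, DESeq2 and limma voom called 0, with 1, Edem2, at an unadjusted p under 0.05 by edgeR. Among 16 further UPR regulators edgeR called 0, with 4 at that p, DESeq2 called 1 and limma voom 2. Creb3l4, an ER-membrane factor of the same family as Creb3l2, was at 3.28 ± 1.34 CPM in germ-free and 6.82 ± 0.965 CPM in SPF mice (−1.06 ± 0.32, edgeR adjusted p = 0.0832).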

How the data were processed

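Whole-number gene counts were deposited for 8 libraries, per the file headers, and were made with a stranded total RNA kit with ribosomal RNA depletion, per the labels' protocols. The submitters' processing notes list DESeq2 1.22.2, HTSeq 0.6.0, TopHat2 2.1.1, cutadapt 1.18, bcl2fastq 2.18.0.12 and the build GRCm38, with no role or order. The deposited normalized signal equals each library's counts over a constant of that library, as checked on the values, and the authors' baseMean signal averages it. Their log2 fold changes, as deposited, have SPF on top, with the Wald statistic as a score column and p-values and adjusted p-values from DESeq2, per the file headers. No source used here gives the strand setting of the counting. In GENCODE M21, 13 members overlap a gene on the opposite strand, among them Ddit3, Hsp90b1, Pdia3, Pdia6, Dnajb9, Herpud1 and Manf, and their values are less certain.

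The counts were filtered with filterByExpr (minimum count 10, minimum total 15), scaled with TMM, then fitted in edgeR 4.0.16 (R 4.3.3) by robust glmQLFit with group as the only term and tested two-sided by glmQLFTest. A call is a Benjamini-Hochberg adjusted p under 0.05 over all genes tested. Standard errors come from the fold change and the F statistic. Alternatives used DESeq2 1.42.0, limma 3.58.1 voom with quality weights, other scaling or filters, the fit blocked by replicate number, and fits leaving out single libraries. The tests were tried on simulated counts. Full values were due to called members, the sensors, Xbp1, Atf4, Ddit3, Hspa5 and the 3 smallest p of each arm. Herpud1 was added to these after its values were seen. Other lists are named by up to 5 called genes, or the 2 smallest p. Members and lists were chosen with earlier results of these data known. Libraries within a group are separate animals, per the series' design text.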

Additional observations from a re-analysis of the deposited data

Results flagged for a closer look

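A single library stood far from the other 3 of its group in 2 of 72 member-by-group sets, where chance alone gives about 5% of sets. Ddit3 was at 17.4 CPM in SPF 3, against 12.4 CPM in the nearest SPF library and 11.9 CPM in the lowest. Asns was at 53.3 CPM in SPF 5, against 44 CPM in the nearest and 43.5 CPM in the lowest. Neither gene was called by edgeR with or without that library.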

How the results depend on the processing

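Members called lower numbered 7 by DESeq2, 4 by limma voom and 0 with the replicate block, against 1, and members called higher numbered 1 by each of these, against 0. With 1 library left out the counts ran from 0 to 10 lower and from 0 to 1 higher. Calls among other ER folding genes were 2 by DESeq2 and limma voom and 1 with DESeq2 size factors, no filter or a minimum count of 30, against 0, and 0 to 1 with a library left out. Translocation calls were 2 by DESeq2, limma voom and a minimum count of 30, 0 with the block, and 0 to 2 with a library left out. Integrated stress response calls were 8 by DESeq2, 2 with the block, and 2 to 4 with a library left out. Regulator calls were 1 by DESeq2, 2 by limma voom, and 0 to 1 with a library left out. The cause of these shifts was not tested.

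Fold changes near 0 changed sign in 15 fits, none of them called. With single libraries left out, Ern1 ran from −0.075 to 0.12, Atf6b from −0.11 to 0.029, Eif2ak3 from −0.15 to 0.0032, Atf4 from −0.0051 to 0.11, Ppp1r15a from −0.055 to 0.38, Ppp1r15b from −0.022 to 0.062, Trib3 from −0.19 to 0.41, Dnajc3 from −0.083 to 0.095 and Sel1l from −0.13 to 0.18. The sign turned without germ-free 4 or SPF 1 for Ern1 (−0.0030 without SPF 1) and Atf6b (0.0025), without SPF 1 for Atf4 and Dnajc3, without germ-free 4 for Eif2ak3, Ppp1r15a and Ppp1r15b, without germ-free 2 for Sel1l and Trib3, and without SPF 4 for Trib3 (−0.13). By limma voom Dnajc3 was at −0.0087 and Sel1l at −0.071, and with the block Sel1l was at −0.16. Replicate numbers 1, 3 and 4 occur in both groups, but deviations of same-numbered libraries correlated at 0.192, −0.0821 and −0.0749, so the numbers were taken as names and not as pairs. Under the replicate block Dnajb9 was called (0.82, adjusted p = 0.0347) and Xbp1 was not (−0.42, adjusted p = 0.155). Depth limits Chac1 and Trib3, at 51 counts or fewer per library.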
